A study of Mus musculus with 20 samples.

Results

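The genes described here are 9 members of the ETS family of transcription factors, Elf5, Ehf, Elf3, Ets2, Ets1, Elf1, Etv5, Etv4 and Spdef, followed across 7 sorted groups of mouse mammary epithelial cells. They were taken by gene symbol from 19937 genes that had a probe set with exactly 1 symbol in the platform annotation. Where a gene had several such probe sets, the one with the highest mean over the 20 arrays was used, and Etv5, with 2 probe sets, was the only member for which this mattered. All 9 were measured on every array.

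All mice were of mixed FVB/CD-1 background and were taken 4 weeks after tamoxifen. Mutants were K8-creERT2/PIK3CA H1047R, and K8-creERT2 animals served as controls. In these mice the keratin 8 promoter, which is active in luminal cells, drives a tamoxifen-inducible Cre recombinase. The Cre switches on a transgene for PIK3CA H1047R, an activated form of the catalytic subunit of PI3 kinase, together with GFP. Controls carried the Cre without the transgene. Each of the 3 sortings pooled glands from 2 to 3 estrus-synchronised animals of a genotype, and RNA of 2000 CD45-negative cells was amplified for each array. Basal cells were gated as CD24-low and Sca1-negative, and luminal cells as CD24-high and either Sca1-negative or Sca1-positive. The control groups were GFP-negative basal, Sca1-negative luminal and Sca1-positive luminal cells, with 3 arrays each. The mutant groups were GFP-positive Sca1-negative luminal cells (3 arrays), GFP-positive Sca1-positive luminal cells (2 arrays, replicates 1 and 3), GFP-positive basal cells (3 arrays) and GFP-negative basal cells from the same mutant glands (3 arrays). GFP-positive mutant cells were selected for expressing the transgene, whereas control cells were GFP-negative, so the gate and the genotype cannot be told apart in those comparisons.

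ETS proteins share a winged helix-turn-helix DNA-binding domain that recognises a GGAA core. The family divides into subfamilies with different roles. Elf3, Elf5 and Ehf are epithelium-restricted members. Elf5 acts downstream of the prolactin receptor and is required for the alveolar cells that secrete milk, and it is a known marker of luminal progenitors. Ets1 and Ets2 are phosphorylated and activated by the ERK kinases. Etv4 and Etv5 belong to the PEA3 group, which is induced by fibroblast growth factor signalling. Elf1 is broadly expressed, and Spdef is linked to secretory and hormone-sensing luminal cells.

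Promoter sequence was looked up for the members by symbol in a RefSeq table of build GRCm38.p6, and 6 of the 9 members matched, with 9 start sites in all. The 250 bases before the start are shown for Elf5, Elf3 and Ets2, because Elf5 and Ets2 were called between mutant and control cells and Elf3 is the epithelial relative that was not. Ehf, Ets1 and Etv4 had no entry. The core shown is the one that the family itself recognises. Sequences run 5′ to 3′ on the strand of the gene, and capitals mark GGAA or its reverse complement TTCC. The windows are chr2:103411848-103412097 (plus strand) and chr2:103423818-103424067 (plus strand) for the 2 Elf5 starts, chr1:135258473-135258722 (minus strand) for Elf3 and chr16:95702157-95702406 (plus strand) for Ets2.
Elf5, first start: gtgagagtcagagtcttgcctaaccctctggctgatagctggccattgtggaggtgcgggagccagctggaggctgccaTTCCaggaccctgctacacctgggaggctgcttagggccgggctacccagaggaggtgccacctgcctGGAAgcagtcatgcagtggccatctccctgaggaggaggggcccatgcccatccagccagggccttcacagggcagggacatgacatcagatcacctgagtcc
Elf5, second start: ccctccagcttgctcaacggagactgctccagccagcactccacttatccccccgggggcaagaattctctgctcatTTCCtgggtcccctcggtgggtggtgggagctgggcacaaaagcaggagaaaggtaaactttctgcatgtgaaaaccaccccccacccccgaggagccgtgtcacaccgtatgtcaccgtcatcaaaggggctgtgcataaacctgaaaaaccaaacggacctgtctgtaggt
Elf3: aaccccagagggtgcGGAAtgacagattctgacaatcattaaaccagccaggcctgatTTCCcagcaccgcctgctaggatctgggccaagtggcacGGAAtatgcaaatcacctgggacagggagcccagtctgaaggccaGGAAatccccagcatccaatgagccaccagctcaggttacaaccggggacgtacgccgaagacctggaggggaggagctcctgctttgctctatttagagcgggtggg
Ets2: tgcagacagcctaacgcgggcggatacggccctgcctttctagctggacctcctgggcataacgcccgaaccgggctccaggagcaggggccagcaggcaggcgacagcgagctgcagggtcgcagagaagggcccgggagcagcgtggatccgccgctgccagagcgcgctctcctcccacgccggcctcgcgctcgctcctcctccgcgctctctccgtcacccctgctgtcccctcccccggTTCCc

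Elf3 held 4 GGAA cores in its window, the first Elf5 start held 2, and the second Elf5 start and Ets2 held 1 each. The core is too short to mark these promoters out: on both strands, 93.4% of 32851 windows of the same length in the table held it, with a median of 3 matches. The longer form GGAAG, which always contains GGAA, was in 64.1% of all windows and, among those shown, once in the first Elf5 window. TTCNNNGAA, the palindromic form bound by STAT proteins such as the prolactin-activated Stat5, was in 7.02% of all windows and in none of the 9 member windows. A match is only a run of letters, and its absence from a window says nothing about the factor.

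The values are log2 probe set summaries, and array medians lay between 3.66 and 3.80, so a level near 3.7 is close to the middle of all probe sets. The average of 7 basal markers was 9.57 to 10.21 on the 9 basal arrays and 4.52 to 5.65 on the 11 luminal arrays. The luminal keratin Krt8 was not low in sorted basal cells: it averaged 10.34 ± 0.43 (SD, n = 3) in control basal against 11.88 ± 0.03 (SD, n = 3) in control Sca1-negative luminal cells. The keratins Krt19 and Krt7 were further apart, higher in these luminal than in basal cells by 3.77 and 4.89. Averages of the endothelial (7 genes), immune (8), fibroblast (6), pericyte (4) and adipocyte (3) marker lists stayed between 3.22 and 4.08 on every array, close to the array medians. The immune marker Ptprc, the CD45 that was gated out, had group means of 3.36 to 3.66, and the endothelial marker Cdh5 was highest in control basal cells, at 4.01, 3.89 and 5.19. The arrays are bulk samples, so a higher share of cells expressing a gene and more RNA per cell cannot be told apart.

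Replicate 2 of the GFP-negative mutant basal group stood apart from its group for Ehf, at 8.36 against 4.91 and 5.26 in the other 2 arrays. Its averages over the luminal list (8.73) and the luminal progenitor list (6.64) were the lowest of that group, below 9.14 and 9.24 and below 7.25 and 7.25. Its basal list average of 9.83 was also the lowest, against 10.21 and 10.07. Results that rest on this array are given with and without it.

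In the controls, 7 of the 9 members were higher in Sca1-negative luminal than in basal cells, beside 5.22% of all genes called higher in that comparison (9.89% in either direction). Ehf had the largest difference, 5.0 on the log2 scale, followed by Elf5 (2.58), Elf3 (2.25), Ets2 (1.96), Elf1 (1.22), Ets1 (0.95) and Spdef (0.45). In Sca1-positive luminal cells 6 members were higher than in basal cells, the same list without Elf5, beside 6.32% of all genes higher (12.3% in either direction). The median difference over the 9 members was 1.22 and 0.94 in these comparisons, against -0.01 and 0.01 over all genes. Etv4 and Etv5 were called in neither. No member was called between the 2 control luminal groups, where 0.762% of all genes were, and 1 of the 9 had an unadjusted p under 0.05. A gene is called here where limma's Benjamini-Hochberg adjusted p over all 19937 genes is under 0.05. The comparisons share arrays: both luminal groups were set against the same 3 control basal arrays.

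**Figure D1:**
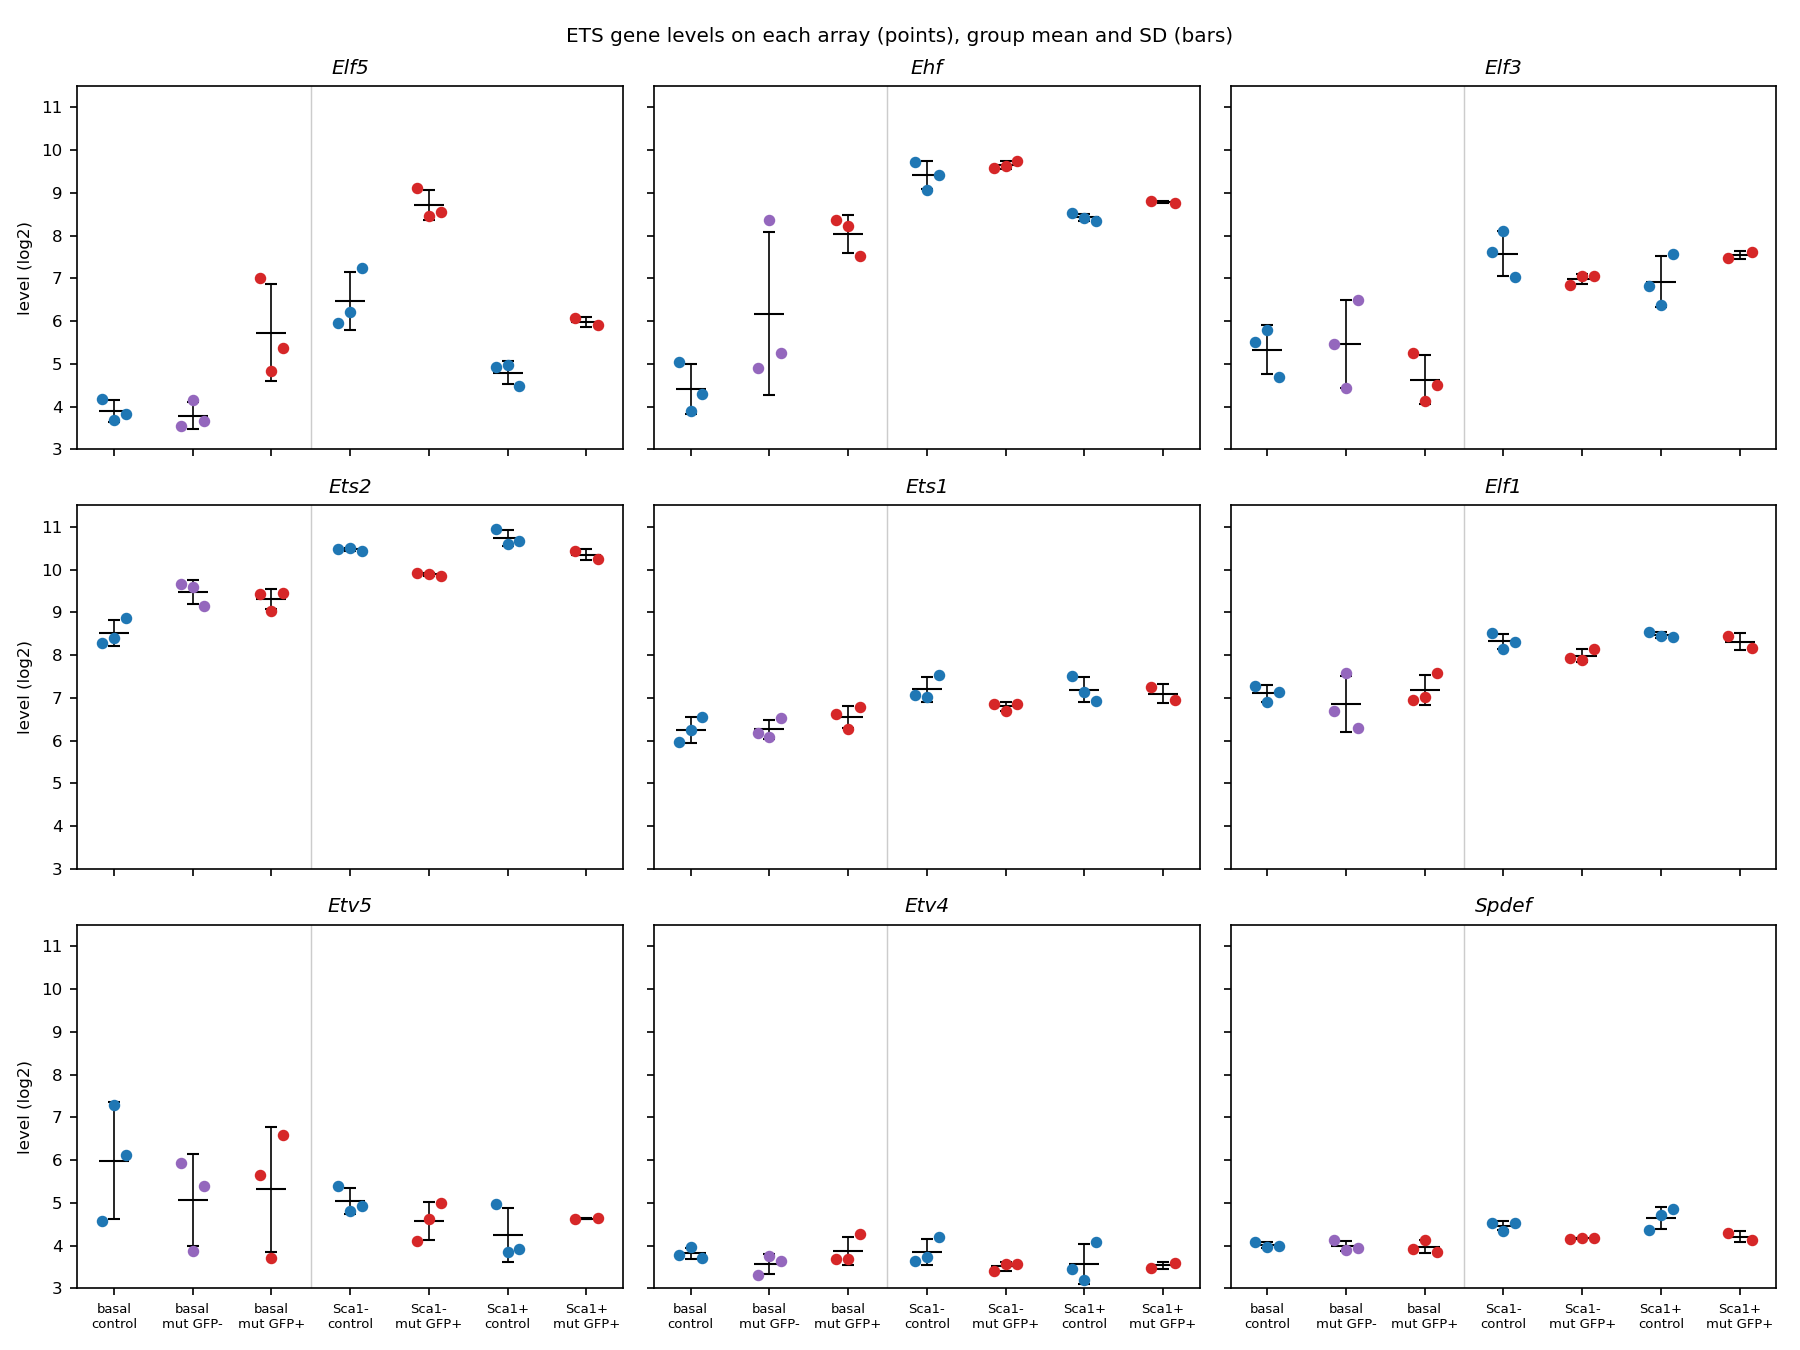
Level of each ETS gene on the log2 scale (vertical axis) in the 7 sorted groups (horizontal axis), with 1 point per array and bars for the group mean and SD (n = 3, and n = 2 for mutant Sca1+ luminal). All members but Etv4 and Etv5 were lower on all 3 control basal arrays than on any luminal array. Elf5 was highest in mutant Sca1- luminal cells (8.47 to 9.12), and Etv4 stayed between 3.18 and 4.26 on every array.

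**Figure D2:**
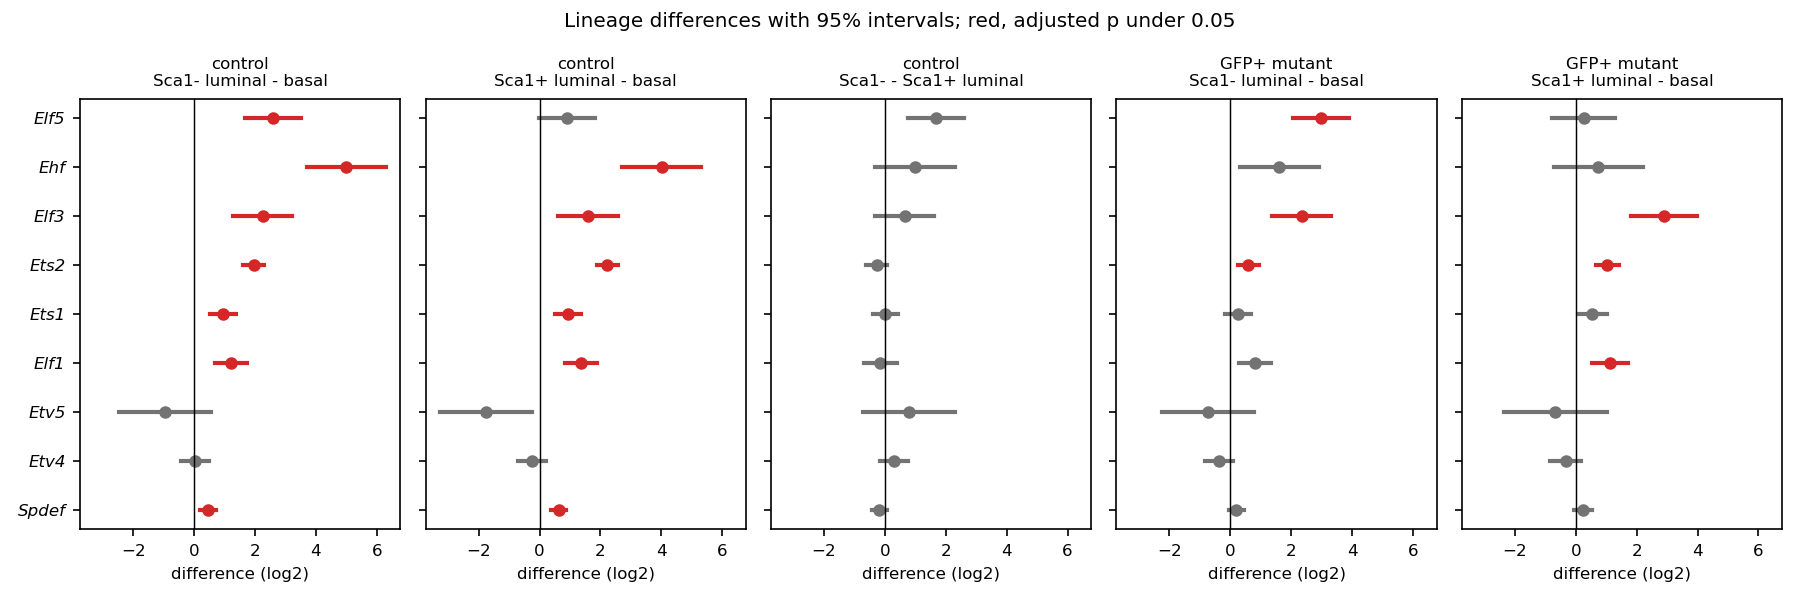
Differences between lineages on the log2 scale (horizontal axis) for the 9 genes (vertical axis) within controls and within GFP+ mutant cells; points are limma estimates, lines are 95% intervals, and red marks an adjusted p under 0.05. In controls 7 and 6 genes were higher in luminal cells, and in GFP+ mutant cells 3 and 3.

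Against controls, the mutant groups differed in few members, with Elf5 called in both luminal and basal cells. In Sca1-negative luminal cells Elf5 rose and no other member was called, beside 1.21% of all genes higher and 1.9% in either direction. In Sca1-positive luminal cells none of the 9 was called by limma, beside 0.226% of all genes, and 3 had an unadjusted p under 0.05. In GFP-positive basal cells Ehf, Elf5 and Ets2 rose, 3 of the 9, beside 2.32% of all genes higher and 4.23% in either direction. In GFP-negative basal cells Ets2 was the only member called, beside 0.0953% of all genes higher and 0.161% in either direction. Between the GFP-positive and GFP-negative basal cells of mutant glands only Elf5 was called, beside 2.05% of all genes higher and 3.25% in either direction. These comparisons share the control basal or GFP-positive basal arrays. With each comparison fitted on its own arrays only, Elf5 and Ets2 were no longer called in basal cells, Ets2 was called in Sca1-negative luminal cells, and the number of calls over the 5 comparisons went from 6 to 3.

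**Figure D3:**
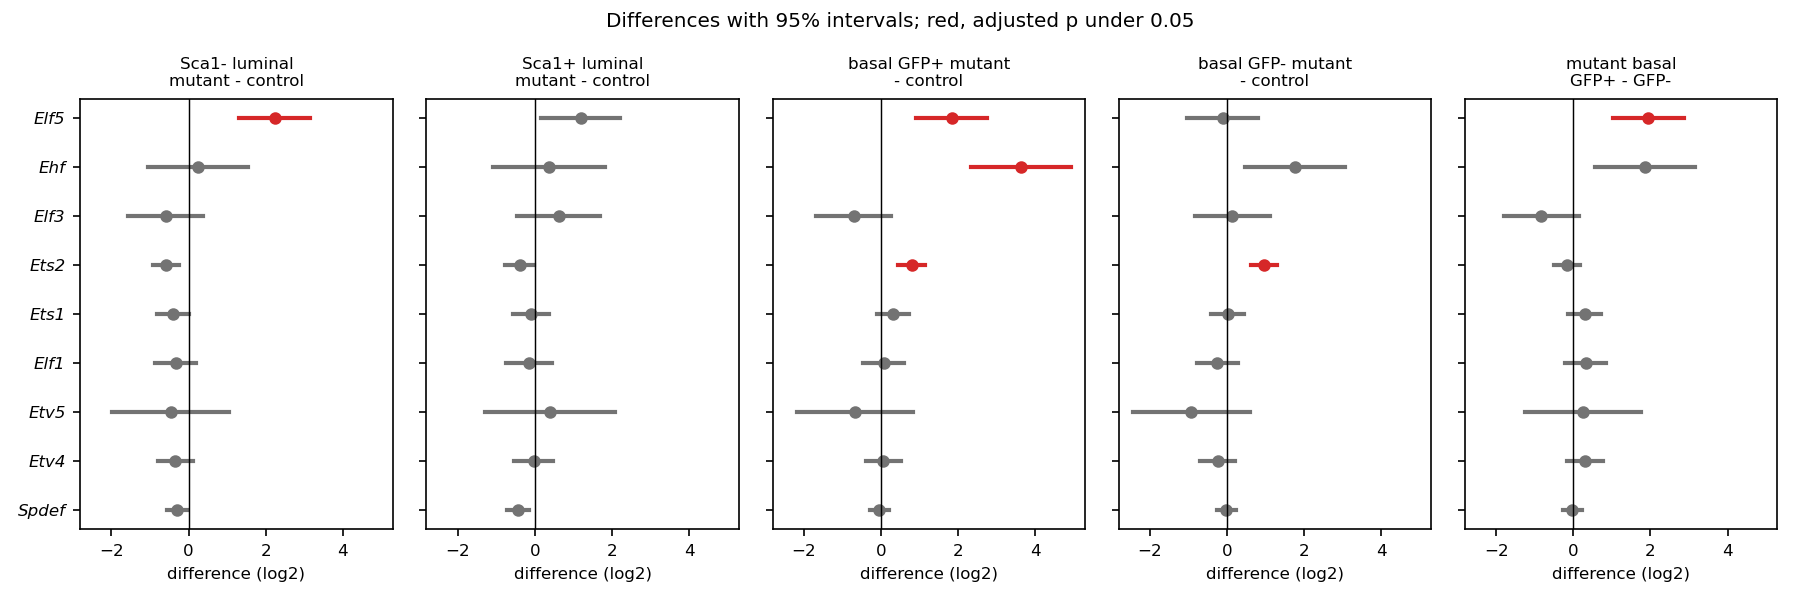
Differences between mutant and control groups, and between GFP+ and GFP- mutant basal cells, on the log2 scale (horizontal axis) for the 9 genes (vertical axis); points are limma estimates, lines are 95% intervals, and red marks an adjusted p under 0.05. Elf5 was called in Sca1- luminal cells (2.23) and in both GFP+ basal comparisons (1.84 and 1.94), and Ehf only against control basal cells (3.62).

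Elf5, the alveolar regulator, was near the middle of all probe sets in control basal cells, with levels of 4.17, 3.69 and 3.83 on the 3 arrays. It was 5.97, 6.23 and 7.25 in control Sca1-negative luminal cells and 4.94, 4.96 and 4.48 in control Sca1-positive luminal cells. The arrays of these 3 control groups did not overlap with each other. The difference between Sca1-negative luminal and basal cells was 2.58 (SE 0.43, adjusted p = 0.00075), a 5.99-fold difference. That between the 2 luminal groups was 1.69 (SE 0.43, adjusted p = 0.107), and that between Sca1-positive luminal and basal cells was 0.90 (SE 0.43, adjusted p = 0.231). Each of these 2 passed in 1 alternative. The first did so without replicate 1 of the GFP-positive basal group (adjusted p = 0.015), and the second on its own arrays only (adjusted p = 0.0362).

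In mutant Sca1-negative luminal cells Elf5 reached 9.12, 8.47 and 8.55, above every other array of the series. The difference from the control was 2.23 (SE 0.43, 95% interval 1.31 to 3.15, adjusted p = 0.0113), a 4.70-fold difference. The call was lost without replicate 1 of the mutant group (2.03, adjusted p = 0.0609) and without replicate 1 or 2 of the control group (1.97 and 2.10, adjusted p = 0.0636 and 0.0527). In mutant Sca1-positive luminal cells the 2 arrays read 6.07 and 5.90, both above the 3 control arrays, and the difference of 1.19 did not pass (SE 0.48, 95% interval 0.17 to 2.22, adjusted p = 0.483). The difference between these 2 effects was 1.04 (95% interval -0.34 to 2.42, adjusted p = 1), so the data did not separate them. Within the mutant, Sca1-negative exceeded Sca1-positive luminal cells by 2.73 (SE 0.48, adjusted p = 0.00326), the only member called in that comparison, where 1.73% of all genes were higher and 4.08% were called in either direction.

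In GFP-positive basal cells Elf5 read 7.01, 4.83 and 5.36, all above the highest control basal array (4.17) and the highest GFP-negative mutant basal array (4.16). The GFP-negative mutant basal arrays, at 3.54, 4.16 and 3.67, overlapped with the controls. The difference from control basal cells was 1.84 (SE 0.43, 95% interval 0.92 to 2.75, adjusted p = 0.0227), and that from GFP-negative mutant basal cells was 1.94 (SE 0.43, 95% interval 1.02 to 2.86, adjusted p = 0.0205). Both rested partly on replicate 1 of the GFP-positive group, without which they were 1.20 (adjusted p = 0.0691) and 1.31 (adjusted p = 0.0544). The first call was also lost without replicate 2 or 3 of the control basal group (1.73 and 1.80), and the second without replicate 1 or 3 of the GFP-negative group (1.82 and 1.88). From high to low, the group means of Elf5 were 8.71 in mutant Sca1-negative luminal, 6.48 in control Sca1-negative luminal, 5.99 in mutant Sca1-positive luminal, 5.73 in GFP-positive basal, 4.79 in control Sca1-positive luminal, 3.90 in control basal and 3.79 in GFP-negative mutant basal cells. Neighbours in this order had overlapping arrays except for the first step and for the step from control Sca1-positive luminal to control basal cells.

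Ehf, an epithelial factor encoded close to Elf5, separated control basal from luminal cells more widely than any other member. It read 5.05, 3.89 and 4.31 in control basal cells, 9.73, 9.08 and 9.43 in control Sca1-negative luminal cells and 8.52, 8.40 and 8.35 in control Sca1-positive luminal cells. The luminal groups were higher than basal cells by 5.0 (SE 0.61, adjusted p = 3.57e-05) and 4.01 (SE 0.61, adjusted p = 0.000249), which are 31.9-fold and 16.1-fold. Both calls held in all 29 alternative fits.

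In GFP-positive mutant basal cells Ehf read 8.36, 8.23 and 7.54, all above the highest control basal array (5.05). The difference was 3.62 (SE 0.61, 95% interval 2.33 to 4.92, adjusted p = 0.00217), a 12.3-fold difference that held in all 29 alternatives. In mutant luminal cells the levels were close to the controls, at 9.58, 9.62 and 9.75 (Sca1-negative) and 8.81 and 8.76 (Sca1-positive). In these cells the differences were 0.24 (95% interval -1.06 to 1.54, adjusted p = 0.974) and 0.36 (95% interval -1.09 to 1.81, adjusted p = 0.903). The basal effect exceeded the luminal ones by 3.38 (adjusted p = 0.0709) and 3.26 (adjusted p = 0.134). The first difference passed in 5 of 29 alternatives and the second in 2. Both passed on their own arrays only (adjusted p = 0.00302 and 0.00824) and without replicate 2 of the GFP-negative basal group (adjusted p = 0.00012 and 0.000352).

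That array entered the Ehf results through the mean of its own group and through the estimate of the spread that all groups share. The GFP-negative mutant basal group read 4.91, 8.36 and 5.26, a mean of 6.18 ± 1.90 (SD, n = 3). GFP-positive cells exceeded it by 1.86 (SE 0.61, adjusted p = 0.137), and by 2.96 (adjusted p = 2.27e-05) without replicate 2. The difference between GFP-negative mutant and control basal cells was 1.76 (adjusted p = 0.33) with the array and 0.67 (adjusted p = 0.528) without it. Replicates 1 and 3 lay near the control arrays, and replicate 2 had the same level as the highest GFP-positive array. From high to low, mean Ehf was 9.65 in mutant and 9.41 in control Sca1-negative luminal, 8.78 in mutant and 8.43 in control Sca1-positive luminal, 8.04 in GFP-positive basal, 6.18 in GFP-negative basal and 4.42 in control basal cells. Arrays did not overlap at the steps from control Sca1-negative to mutant Sca1-positive and from there to control Sca1-positive luminal cells, and overlapped at the others.

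Elf5 and Ehf rose in GFP-positive basal cells beside markers of the luminal lineage. The average of the 5 luminal markers was 9.91, 9.26 and 9.90 on the GFP-positive basal arrays, against 8.81 to 9.23 in control basal and 10.89 to 11.09 in luminal cells, and 2 of the 5 (Krt18 and Krt19) were called. The luminal progenitor list averaged 7.41 to 7.82 against 6.60 to 6.88 in control basal cells, with 1 of 5 called (Cd14). The basal list averaged 9.57 to 9.87 against 10.13 to 10.16, with 2 of 7 called lower (Myh11 and Oxtr). Over all genes 4.23% were called in either direction in this comparison. On the GFP-negative mutant basal arrays the luminal list averaged 9.14, 8.73 and 9.24. Their progenitor list averaged 7.25, 6.64 and 7.25, and their basal list 10.21, 9.83 and 10.07. The part of these markers in the Elf5 and Ehf results was not tested. Replicate 1 of the GFP-positive basal group, with the highest Elf5, also had the highest progenitor average (7.82), while replicate 3 matched its luminal average with an Elf5 level of 5.36.

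Elf3, the third epithelium-restricted member, did not follow Elf5 and Ehf in basal cells. It read 5.50, 5.80 and 4.70 in control basal cells, 7.61, 8.10 and 7.03 in control Sca1-negative luminal and 6.83, 6.38 and 7.56 in control Sca1-positive luminal cells. Every control luminal array was above every control basal array, by 2.25 (SE 0.46, adjusted p = 0.00371) and 1.59 (SE 0.46, adjusted p = 0.0305) on average. The second of these was lost in 5 of 29 alternatives, among them the fits without replicate 1 or 3 of either group, and its difference ranged from 1.27 to 1.86. In GFP-positive basal cells Elf3 read 5.25, 4.14 and 4.51, overlapping with the controls, and the difference was -0.70 (SE 0.46, 95% interval -1.67 to 0.27, adjusted p = 0.51). The upper bound of that interval lies below the differences measured for Ehf and Elf5. In mutant luminal cells the differences were -0.60 (adjusted p = 0.747) and 0.62 (adjusted p = 0.752). Within GFP-positive mutant cells Elf3 was higher in Sca1-negative and Sca1-positive luminal than in basal cells, by 2.35 (adjusted p = 0.00275) and 2.91 (adjusted p = 0.00105).

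Within the mutant, 3 members were higher in Sca1-negative luminal than in GFP-positive basal cells (Elf5, Elf3 and Ets2), beside 5.16% of all genes higher and 9.59% in either direction. For Sca1-positive luminal cells the 3 were Elf3, Ets2 and Elf1, beside 6.16% higher and 10.7% in either direction. Ehf, 5.0 and 4.01 apart in controls, was 1.61 (SE 0.61, adjusted p = 0.132) and 0.75 (SE 0.68, adjusted p = 0.617) apart in the mutant. The first of these was called without replicate 2 of the GFP-negative basal group (adjusted p = 0.000636) and on its own arrays only (adjusted p = 0.0077). Elf5 was 2.98 apart (adjusted p = 0.000223) in Sca1-negative and 0.25 apart (adjusted p = 0.839) in Sca1-positive luminal cells.

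Set directly against control luminal cells, GFP-positive basal cells had lower Elf3, Ets2, Elf1 and Spdef than the Sca1-negative group, 4 of the 9 beside 4.94% of all genes lower (9.81% in either direction). They had lower levels of the same 4 and Ets1 than the Sca1-positive group, 5 of the 9 beside 6.17% lower (11.9% in either direction). Elf3 showed the widest gaps, -2.95 (adjusted p = 0.000387) and -2.29 (adjusted p = 0.0026). The Ets1 call was marginal (-0.63, adjusted p = 0.0494) and was lost in 18 of 29 alternatives, one of them without replicate 2 of the GFP-negative basal group (adjusted p = 0.0522). The Spdef calls, at -0.49 (adjusted p = 0.0127) and -0.67 (adjusted p = 0.000922), were lost in 4 and 1 alternatives. The 4 were the fit on its own arrays only and those without replicate 1 or 3 of control Sca1-negative luminal or replicate 3 of GFP-positive basal cells. Ehf was not called, at -1.37 (95% interval -2.67 to -0.08, adjusted p = 0.206) and -0.39 (95% interval -1.68 to 0.91, adjusted p = 0.783). The first passed without replicate 2 of the GFP-negative basal group (adjusted p = 0.00234) and on its own arrays only (adjusted p = 0.0297). Elf5 was not called either, at -0.75 (95% interval -1.67 to 0.17, adjusted p = 0.364) and 0.94 (95% interval 0.02 to 1.86, adjusted p = 0.202). Without replicate 1 of the GFP-positive basal group the first Elf5 difference was -1.38 (adjusted p = 0.016).

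Ets2, an ERK-activated factor, was the only member whose mutant effect was called different between basal and luminal cells in the main fit. Control basal cells read 8.28, 8.40 and 8.86, control Sca1-negative luminal cells 10.49, 10.50 and 10.44, and control Sca1-positive luminal cells 10.95, 10.59 and 10.68. The control luminal groups did not overlap with basal cells and were higher by 1.96 (SE 0.16, adjusted p = 6.01e-07) and 2.23 (SE 0.16, adjusted p = 9.52e-08). GFP-positive basal cells read 9.43, 9.03 and 9.46 and GFP-negative mutant basal cells 9.67, 9.59 and 9.16. All 6 mutant basal arrays were thus above the 3 control basal arrays and below every control luminal array.

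The rise over control basal cells was 0.79 (SE 0.16, 95% interval 0.45 to 1.14, adjusted p = 0.00955) in GFP-positive and 0.96 (SE 0.16, 95% interval 0.61 to 1.30, adjusted p = 0.0308) in GFP-negative cells, and the 2 mutant basal groups differed by -0.17 (95% interval -0.51 to 0.18, adjusted p = 0.773). The GFP-negative call was lost in 8 of 29 alternatives, among them the fits without replicate 1 or 2 of either basal group, with differences of 0.84 to 1.13 throughout. Without replicate 2 of the GFP-negative group it was 0.90 (adjusted p = 0.0817). It was also lost, at an unchanged difference, without replicate 1 of either Sca1-negative luminal group (adjusted p = 0.0517 and 0.0516).

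In luminal cells the mutant arrays lay below the controls: 9.92, 9.90 and 9.84 in Sca1-negative and 10.43 and 10.25 in Sca1-positive cells, with no overlap with the matching controls. Neither difference passed, at -0.59 (SE 0.16, 95% interval -0.93 to -0.24, adjusted p = 0.0897) and -0.40 (SE 0.18, 95% interval -0.78 to -0.01, adjusted p = 0.548). The Sca1-negative difference passed in 3 of 29 alternatives, one of them fitted on its own arrays only (adjusted p = 0.0183). The basal effect exceeded the Sca1-negative luminal effect by 1.38 (SE 0.23, 95% interval 0.89 to 1.87, adjusted p = 0.00437), a call that held in all 29 alternatives. It exceeded the Sca1-positive luminal effect by 1.19 (SE 0.24, 95% interval 0.67 to 1.71, adjusted p = 0.0247). That call was lost in 8 alternatives, 7 of which left out 1 array: replicate 1 or 2 of control basal, replicate 1 of control Sca1-positive luminal, replicate 1 or 3 of GFP-positive basal, or either mutant Sca1-positive luminal array (1.07 to 1.28, adjusted p = 0.0569 to 0.149). Of all genes, 1.55% and 1.09% were called in these 2 tests of a difference between effects (0.938% and 0.582% in the direction of Ets2), and 0.14% in the one between the 2 luminal effects, where no member was called and none had an unadjusted p under 0.05. Within the mutant, the gap between luminal and GFP-positive basal cells was 0.58 (adjusted p = 0.0322) for Sca1-negative and 1.04 (adjusted p = 0.00103) for Sca1-positive cells. The first was lost in 6 alternatives, among them the fits without replicate 2 of GFP-positive basal or without any 1 of the 3 mutant Sca1-negative luminal arrays (0.44 to 0.60).

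Immediate early genes, which respond to ERK and also to cell handling, were averaged over 9 measured genes beside Ets2. Their average was 9.80 to 10.03 in control basal, 9.57 to 9.72 in GFP-negative and 9.30 to 9.49 in GFP-positive mutant basal cells, so that control basal cells were highest for this list and lowest for Ets2. It was 9.53 to 9.77 in control and 9.17 to 9.41 in mutant Sca1-negative luminal cells, lower in the mutant arrays as Ets2 was. In Sca1-positive luminal cells it was 9.36 to 9.83 in control and 9.79 to 9.93 in mutant arrays. Its mean there was higher in the mutant, whereas Ets2 was lower. The part of these genes in the Ets2 results was not tested.

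Ets1, the close relative of Ets2, varied less. It read 5.96, 6.24 and 6.55 in control basal cells and 6.92 to 7.54 on the 6 control luminal arrays, which did not overlap. The luminal groups were higher by 0.95 (SE 0.20, adjusted p = 0.00422) and 0.94 (SE 0.20, adjusted p = 0.00408), the first of which was lost on its own arrays only (adjusted p = 0.0505). No mutant difference was called: 0.31 (95% interval -0.11 to 0.73) in GFP-positive basal, 0.01 in GFP-negative basal, -0.40 in Sca1-negative and -0.09 in Sca1-positive luminal cells, with adjusted p from 0.473 to 0.996.

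Elf1, the broadly expressed member, read 7.28, 6.90 and 7.14 in control basal cells and 8.15 to 8.54 on the 6 control luminal arrays. The luminal groups were higher by 1.22 (SE 0.25, adjusted p = 0.00381) and 1.36 (SE 0.25, adjusted p = 0.00124), and both calls held in all 29 alternatives. GFP-positive basal cells stayed at 6.94, 7.01 and 7.58, a difference of 0.07 from control basal cells (95% interval -0.46 to 0.60, adjusted p = 0.938). Their differences from control luminal cells were -1.15 (adjusted p = 0.00625) and -1.29 (adjusted p = 0.00196). Mutant Sca1-positive luminal cells exceeded them by 1.14 (adjusted p = 0.013), a call lost without replicate 1 of that luminal group, and mutant Sca1-negative luminal cells by 0.81 (adjusted p = 0.0511). The latter was called in 6 of 29 alternatives, one of them without replicate 2 of the GFP-negative basal group (adjusted p = 0.0049). Elf1 was 7.59 in replicate 2 of the GFP-negative basal group against 6.68 and 6.31 in the other 2, so that array was the highest of its group for Elf1 as for Ehf.

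Etv5, a growth-factor-induced member of the PEA3 group, was the only one with its highest group mean in control basal cells, and its arrays scattered widely there. It read 4.57, 7.28 and 6.12 in control basal, 5.65, 3.71 and 6.58 in GFP-positive and 5.93, 3.86 and 5.39 in GFP-negative mutant basal cells. Luminal arrays lay between 3.84 and 5.39. No comparison was called, the widest being -1.75 between control Sca1-positive luminal and basal cells (SE 0.71, 95% interval -3.26 to -0.24, adjusted p = 0.141). The second Etv5 probe set gave 4.69, 6.52 and 5.40 in control basal cells, with group means from 3.89 to 4.01 in luminal cells and of 4.91 and 4.59 in GFP-negative and GFP-positive mutant basal cells. With the mean of both probe sets the Sca1-positive difference was called, as it was without replicate 1 of control basal. In both probe sets all 3 basal group means were above all 4 luminal ones.

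Etv4, its PEA3 relative, stayed near the array medians, between 3.18 and 4.26 on all 20 arrays, with group means spanning 0.36. None of its comparisons was called. Spdef was also low. It read 4.09, 3.96 and 3.98 in control basal, 4.53, 4.34 and 4.52 in control Sca1-negative luminal and 4.36, 4.73 and 4.85 in control Sca1-positive luminal cells. These small gaps were called, at 0.45 (SE 0.12, adjusted p = 0.0205) and 0.63 (SE 0.12, adjusted p = 0.00151). Mutant luminal arrays read 4.15, 4.19 and 4.17 (Sca1-negative) and 4.30 and 4.12 (Sca1-positive), all below the matching controls, with differences of -0.30 (adjusted p = 0.32) and -0.44 (adjusted p = 0.279) that did not pass. GFP-positive basal cells, at 3.92, 4.14 and 3.85, overlapped with control basal cells (-0.04, 95% interval -0.29 to 0.21, adjusted p = 0.928). The Sca1-negative call for Spdef was lost in 4 alternatives, without replicate 2 or 3 of control basal or replicate 1 or 3 of the luminal group (0.42 to 0.52 over all alternatives).

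No other ETS gene on the arrays was called between mutant and control. Of 17 further family genes 16 were measured, and none was called by limma in any of the 5 mutant or GFP comparisons, where 1 to 3 of the 16 had an unadjusted p under 0.05. Over all genes 0.161% to 4.23% were called in these comparisons, so the lack of a call does not set these genes apart. Between control luminal and basal cells 1 (Sca1-negative) and 3 (Sca1-positive) of the 16 were called, beside 9.89% and 12.3% of all genes. All were lower in luminal cells, among them the ETS repressors Elk3 and Erf. In control Sca1-negative luminal cells Elk3 was lower than in basal cells (-1.28, adjusted p = 0.01) and was the only one called. In Sca1-positive luminal cells Elk3 (-1.11, adjusted p = 0.0218), Erf (-1.55, adjusted p = 0.00743) and Elf2 (-0.77, adjusted p = 0.00789) were lower. Within GFP-positive mutant cells, luminal cells again had lower Elk3 (-1.28 and -1.35), lower Erg (-0.44 and -0.48) and higher Etv6 (1.24 and 1.52) than basal cells, all called. These were 3 of the 16 in both comparisons, beside 9.59% and 10.7% of all genes in either direction. Erg is an endothelial ETS factor and lies next to Ets2, and it stayed within 3.19 to 3.98 on every array. Elk3 in the GFP-positive basal group (6.22 ± 0.12, SD, n = 3) had the level of control basal cells (6.22 ± 0.23, SD, n = 3).

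Milk and alveolar genes linked to Elf5 and prolactin were compared across the same groups. Of 17 such genes 15 were measured, and the lists in this and the next paragraphs were chosen with earlier results on these arrays known. In GFP-positive against control basal cells 5 were higher and 2 lower, beside 4.23% of all genes called in either direction. The caseins Csn2 (5.18, adjusted p = 0.0116) and Csn1s1 (4.61, adjusted p = 0.00157), the whey protein gene Wap (2.98, adjusted p = 0.00955), the milk-fat enzyme gene Xdh (2.12, adjusted p = 0.000446) and Cd14, a progenitor marker (2.02, adjusted p = 0.00292), were higher. Cish, a feedback inhibitor of cytokine receptors (-1.10, adjusted p = 0.00545), and Tnfsf11, which encodes RANKL (-0.37, adjusted p = 0.0295), were lower. The list median was 0.33 against -0.03 over all genes. The caseins varied between control arrays, with Csn2 at 8.08, 5.35 and 4.08 in control basal and between 10.92 and 11.13 on the 3 GFP-positive basal arrays.

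In mutant Sca1-negative luminal cells, where Elf5 was highest, Wap (4.85, adjusted p = 0.000357) and Xdh (1.56, adjusted p = 0.0104) rose, beside 1.9% of all genes called. The other 13 of the 15 were not called by limma, and 9 of the 15 had an unadjusted p under 0.05. The list median was 0.14 against -0.03 over all genes. Wap read 9.97, 8.97 and 9.29 there against 4.35, 5.52 and 3.83 in the control. In Sca1-positive luminal cells Wap alone was called (4.26, adjusted p = 0.014), beside 0.226% of all genes. In GFP-negative basal cells none of the 15 was called by limma, beside 0.161% of all genes, and 3 had an unadjusted p under 0.05. Csn1s2a (4.62, adjusted p = 0.0455) and Xdh (1.85, adjusted p = 0.00173) were higher in GFP-positive than in GFP-negative mutant basal cells, beside 3.25% of all genes called. In that comparison 10 of the 15 had an unadjusted p under 0.05. Without replicate 2 of the GFP-negative group only Xdh was called. Kit and Aldh1a3, progenitor markers that were higher in control Sca1-negative than in Sca1-positive luminal cells by 2.32 each (adjusted p = 0.000134 and 2.04e-05), were not among the genes that rose in GFP-positive basal cells, at 4.23 ± 0.16 against 3.91 ± 0.08 and 4.49 ± 0.36 against 4.16 ± 0.18 (SD, n = 3 each).

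Epithelial differentiation genes linked to Elf3 and Ehf were mostly higher in luminal than in basal control cells. Of 13 measured, 9 were higher in control Sca1-negative and 8 in Sca1-positive luminal cells, beside 5.22% and 6.32% of all genes, with list medians of 1.31 and 1.35. The tight-junction gene Cldn4 and the keratin Krt7 were among them, at 4.24 (adjusted p = 0.000579) and 4.89 (adjusted p = 7.95e-08) in Sca1-negative cells. In GFP-positive basal cells 3 of the 13 rose over control basal cells, beside 2.32% of all genes: Krt7 (1.80, adjusted p = 0.00528), Krt19 (1.48, adjusted p = 0.0388) and Cldn7 (1.46, adjusted p = 0.00311). Cldn4 read 7.84, 5.81 and 6.98 there, overlapping with the control basal arrays at 6.93, 7.19 and 5.59. None of the 13 was called by limma in mutant Sca1-negative or Sca1-positive luminal cells, beside 1.9% and 0.226% of all genes. None had an unadjusted p under 0.05 there.

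For ERK-linked targets of Etv4 and Etv5 signalling, 14 genes were measured. In mutant Sca1-negative luminal cells 2 were called, beside 1.9% of all genes in either direction. In GFP-positive basal cells 1 was called against control and against GFP-negative mutant basal cells, beside 4.23% and 3.25%. None was called in Sca1-positive luminal or GFP-negative basal cells, beside 0.226% and 0.161%. Phlda1 was higher in mutant than in control Sca1-negative luminal cells by 0.63 (adjusted p = 0.0428). It was also higher in GFP-positive than in control basal cells by 1.13 (adjusted p = 0.000248) and than in GFP-negative mutant basal cells by 1.26 (adjusted p = 9.87e-05). Fgfr2, a receptor for fibroblast growth factors, was lower in mutant Sca1-negative luminal cells (-1.73, adjusted p = 7.94e-06). In controls, the feedback genes Dusp6, Spred1 and Spred2 and the immediate early gene Egr1 were lower in Sca1-negative luminal than in basal cells (-0.94, -1.47, -1.20 and -0.78), and Dusp4 (1.79) and Phlda1 (0.79) were higher. Over all genes 9.89% were called in either direction in that comparison. Of 7 secretory genes linked to Spdef, 1 was called in the mutant comparisons. This was Creb3l1 in Sca1-negative luminal cells (1.37, adjusted p = 0.0149), beside 1.9% of all genes called there.

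In the group with the highest Elf5, hormone-sensing genes were lower than in its control. Of 6 such genes 5 fell in mutant Sca1-negative luminal cells, beside 1.9% of all genes called in either direction: the progesterone receptor gene Pgr (-2.65, adjusted p = 0.000147), Prom1 (-2.29, adjusted p = 0.000247), Foxa1 (-2.11, adjusted p = 0.00643), Tbx3 (-1.58, adjusted p = 0.00844) and the estrogen receptor gene Esr1 (-1.32, adjusted p = 0.0145). Pgr read 4.95, 5.05 and 4.84 against 7.59, 7.62 and 7.57 in the control. In Sca1-positive luminal cells none of the 6 was called by limma, beside 0.226% of all genes, and none had an unadjusted p under 0.05. Spdef, itself linked to hormone-sensing cells, was lower in these Sca1-negative cells without passing the threshold. Whether the make-up of the sorted Sca1-negative fraction differed between genotypes was not tested.

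Elf5 and Ehf lie close together on chromosome 2, and neighbouring genes also rose in GFP-positive basal cells. Of the 5 measured genes on either side of the pair, 4 of 10 were higher than in control basal cells, beside 2.32% of all genes. They were Apip, the nearest measured gene beyond Ehf (2.29, adjusted p = 5.58e-05), Abtb2 (1.89, adjusted p = 0.00214), Cat, the catalase gene next to Elf5 (1.50, adjusted p = 0.00928), and Cd44 (1.33, adjusted p = 0.000488). Apip read 6.56, 6.98 and 6.38 in GFP-positive and 4.59, 4.36 and 4.07 in control basal cells. Cat read 8.27, 8.26 and 7.58 against 6.35, 6.65 and 6.61. Pdhx, Slc1a2, Nat10, Caprin1, Lmo2 and Pamr1 were not called, and BC016548, the measured gene between Ehf and Elf5, stayed between 2.80 and 3.28 on all arrays.

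In GFP-positive basal cells Apip (6.64 ± 0.31, SD, n = 3) and Cat (8.04 ± 0.40, SD, n = 3) had their highest group means of all 7 groups, whereas the Ehf mean stayed below those of the luminal groups. Cat overlapped there with mutant Sca1-negative luminal cells, which read 6.92, 7.65 and 7.49. None of the 10 was called by limma in mutant Sca1-negative or Sca1-positive luminal cells or in GFP-negative basal cells, where 2, 2 and 5 had an unadjusted p under 0.05. Over all genes 1.9%, 0.226% and 0.161% were called in these comparisons. Between GFP-positive and GFP-negative basal cells Apip (1.48), Cat (1.46) and Cd44 (0.81) were higher and Pamr1 (-1.10) lower, beside 3.25% of all genes in either direction. The same 4 were called without replicate 2 of the GFP-negative group. Cat read 7.35 on that replicate against 5.87 and 6.50 in its group. Whether neighbours of a member move together more often than other adjacent genes was not tested.

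**Figure D4:**
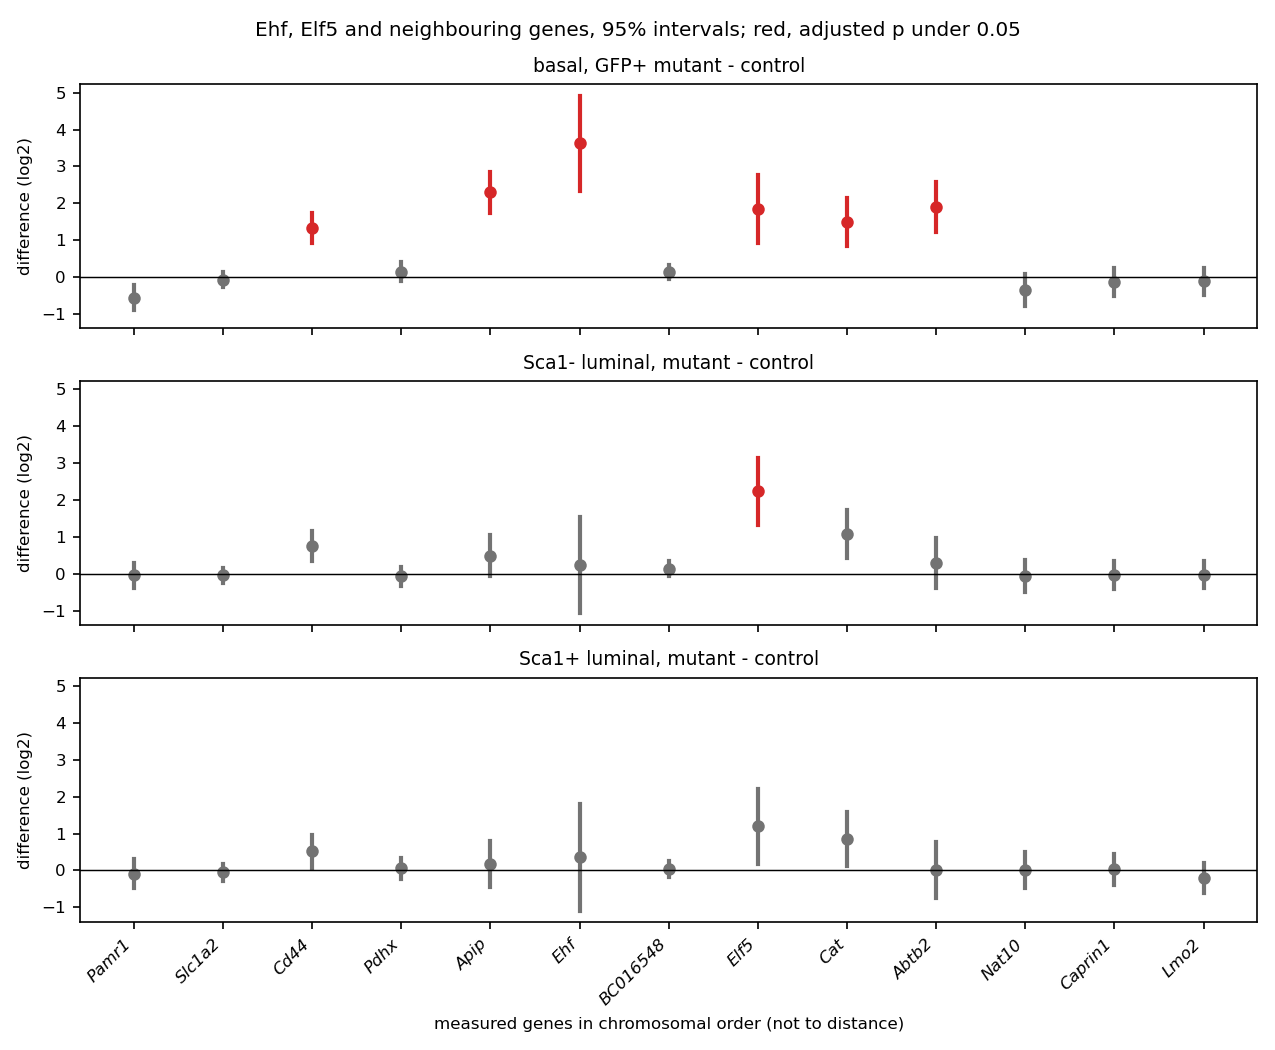
Difference between mutant and control on the log2 scale (vertical axis) for Ehf, Elf5 and the measured genes around them in chromosomal order (horizontal axis), in GFP+ basal, Sca1- luminal and Sca1+ luminal cells; points are limma estimates, lines are 95% intervals, and red marks an adjusted p under 0.05. In basal cells Cd44, Apip, Ehf, Elf5, Cat and Abtb2 were called, and in Sca1- luminal cells only Elf5 (2.23).

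The genes whose pattern was most like each member are given by Pearson r over the 20 arrays, among 4160 genes with group means spanning at least 1. The points share groups and arrays, so r is a description. For Elf5 these were Orai1, a calcium channel subunit (r = 0.958), Clic6 (0.950), Lrg1 (0.943), Slc28a3, a nucleoside transporter (0.942), and Gpd2 (0.936). Slc28a3 had a level of 6.65 ± 0.25 in control and 9.38 ± 0.37 in mutant Sca1-negative luminal cells (SD, n = 3 each), and Clic6 had 6.08 ± 0.29 and 7.94 ± 0.14. For Ehf they were Me1, malic enzyme (0.938), Ifrd1 (0.929), Myo10 (0.927), Cstb (0.921) and H1f2 (0.915). All of these genes, like Ehf, were highest of the GFP-negative basal group on its replicate 2. Me1 read 7.63 there against 5.92 and 6.38, and H1f2 8.89 against 6.88 and 6.79. Ifrd1 read 9.66 against 9.07 and 9.18, Myo10 7.59 against 6.78 and 6.82, and Cstb 10.59 against 9.86 and 10.11. The part of this array in the r values was not tested.

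For the remaining members the closest genes were Slc49a4 (0.895), Cd82 and Ahnak for Elf3, Stk40 (0.940), Anxa2 and Emp1 for Ets2, and Crip1 (0.895), Gnl2 and Mpp5 for Ets1. They were F3, tissue factor (0.941), Marveld2 and Adss for Elf1, Cldn10 (0.882), Chst8 and Crym for Spdef, Prmt1 (0.795), Crtc3 and Kremen1 for Etv5 and Rrm2 (0.691), Porcn and Zfp971 for Etv4. Among the members themselves, Ets2 and Ets1 (r = 0.840) and Ets2 and Elf1 (0.824) were the most alike over the 20 arrays. Elf5 and Ehf had r = 0.765, and Elf5 and Elf3 only 0.444.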

How the data were processed

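RNA of sorted mammary cells was amplified and hybridised to 20 Affymetrix arrays. The deposited table holds log2 values made by the authors, 1 per probe set and array, between 1.98 and 13.07. The submitters' processing notes name affy; its settings, the normalization and the genome build are not given in the sources used here. Of 34760 probe sets, 21640 had 1 gene symbol in GEO's platform annotation, 1321 had several and 11799 were not listed, which left 19937 genes after taking the probe set with the highest mean. No scaling or filter was added.

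The 7 group means were fitted to all 20 arrays with limma 3.58.1 (lmFit, eBayes with default settings) in R 4.3.3, with Benjamini-Hochberg adjustment over all genes within each comparison and a threshold of 0.05. The fit was tested on simulated data. Tables, likeness and motif counts were made in Python 3.11.15. The members, the gene lists and the marker lists were chosen with earlier results of these data known. Genes named are the 9 members, other ETS genes called in a mutant comparison, list genes that were called, the neighbours of Ehf and Elf5, and the genes most like each member (5 for Elf5 and Ehf, 3 otherwise); ETS genes called only between lineages, Kit, Aldh1a3 and Cldn4 in GFP-positive basal cells, and marker genes, were added after their values were seen. Samples were grouped by their titles. Each array is a pool of mice, the labels do not tie pools to single animals, and p-values measure the spread between pools. The number of arrays limits the precision, and no array depth applies. Alternatives were a replicate block, other weights, moderation, normalization, filter, probe set rule and adjustment, each comparison on its own arrays, and leaving out each array.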

Additional observations from a re-analysis of the deposited data

Results flagged for a closer look

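In the main fit to all arrays, Ets2 was the only member whose mutant effect differed between cell types in the test of the difference itself. The effect in GFP-positive basal cells exceeded that in Sca1-negative luminal cells by 1.38 on the log2 scale (SE 0.23, limma adjusted p = 0.00437) and that in Sca1-positive luminal cells by 1.19 (SE 0.24, limma adjusted p = 0.0247). Ets2 was higher on 3 of 3 GFP-positive basal arrays than on any control basal array, and lower on 3 of 3 and 2 of 2 mutant luminal arrays than on any matching control array. Both tests share the control and GFP-positive basal arrays.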

How the results depend on the processing

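Of 37 calls of a member in a comparison, 22 were made under all 29 alternatives and 15 were lost under at least 1, and 13 uncalled differences were called under at least 1. No called difference changed direction. Fitting each comparison on its own arrays lowered the calls over the 5 mutant and GFP comparisons from 6 to 3; that fit has fewer arrays. Leaving out 1 array at a time gave 1 to 4 calls among the tests of a difference between effects, against 2 with all arrays; the 4 were reached without replicate 2 of the GFP-negative basal group. Same-numbered arrays were slightly more alike than others, and the main fit did not pair them. Deviations of same-numbered arrays had a median correlation of 0.0273 within a genotype (24 pairs, 3 over 0.1) and 0.0123 across genotypes (33 pairs, 2 over 0.1). For arrays with different numbers the medians were -0.0106 (48 pairs, 0 over 0.1) and -0.0072 (66 pairs, 0 over 0.1). With the replicate number as a replicate block the counts for mutant and GFP comparisons, control lineages, mutant lineages, GFP-positive basal against control luminal cells and differences between effects were 6, 13, 7, 10 and 2, against 6, 13, 7, 9 and 2 without it, and with a random replicate block (consensus correlation 0.0130) 6, 13, 8, 9 and 2. A filter on low values left 10649 genes and dropped Etv4. Protein identity between members was not run. With 2 or 3 arrays a group and all groups sharing 1 spread, a single scattered array touched calls in groups other than its own, as the Ehf values show.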
